A study of Arabidopsis thaliana with 9 samples.

Results

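The F1 hybrid of the Arabidopsis thaliana accessions C24 and Col was set against the mid-parent level, the mean on the linear scale of the C24 and Col group means, for every probe set of a nuclear gene. For the log2 differences each group level was fitted as a mean of log2 signals, and the levels of both parents were then averaged on the linear scale. The probe sets were chosen by genome and not by their values. Of the 22810 probe sets on the array, 13863 carried only nuclear genes in the platform annotation, and 7524 of these were bright enough to be tested; the other 6339 lay below the signal filter. Among the members, 13381 named 1 gene, for 13230 genes, of which 7225 were tested with 7263 probe sets, and 482 named several. Set aside were 77 probe sets of chloroplast or mitochondrial genes, 35 of the copy of the mitochondrial genome in chromosome 2, 41 whose gene was not matched, 8730 without a gene name and 64 array controls.

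A transcript is called additive here when the hybrid stands at the mean of its parents. A level at one parent, or beyond both, is non-additive. Arabidopsis hybrids are known for vigorous rosette growth, and defence, stress and clock genes have been examined in them for departures from the mid-parent. Salicylic acid and jasmonate are the hormones of partly opposed defence branches, calcium-triggered transcription factor genes respond within minutes to touch and wounding, and sugar-starvation genes are switched on in darkness or when sugars run low.

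The groups were F1 (labelled C24 x Col), C24 and Col (Col-0), each with 3 biological replicates of whole rosettes taken 15 days after sowing on plates kept at 22 °C with 12 h of light. The labels name no treatment. No source used here says which line bore the seed, how many plants made up a sample or at what hour they were harvested. The values are MAS5 signals on a linear scale, scaled per array, with median signals per array between 158.5 and 174.4. Of 20 marker genes for leaf, root, flower and seed, 3 were named. The leaf genes RCA (Rubisco activase) and LHCB4.2 (an antenna protein) were among the brightest, at 36793 ± 1791 in F1, 31676 ± 1238 in C24 and 36305 ± 4544 in Col for RCA (SD, n = 3), and the root gene PYK10 stood at 1985 ± 143 in F1, 92 ± 40.5 in C24 and 2726 ± 219 in Col. It was low in C24 and high in Col, with F1 nearer to Col (adjusted p = 0.274 against the mid-parent), and its part in other results was not tested. In whole rosettes, a change in the share of a cell type and a change of RNA per cell cannot be told apart.

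Most nuclear transcripts lay close to the mid-parent: 6905 of the 7263 probe sets with 1 gene (95.1%) were within 0.5 on the log2 scale, and the median difference was -0.02. Only 264 of the 7263 had C24 at least 2-fold above Col, and 260 had Col at least 2-fold above C24. With parents closer than that, an F1 at the level of 1 parent often lies within 0.5 as well. The share of 95.1% therefore does not tell additive transcripts from those at the level of 1 parent. At an adjusted p of 0.05 in limma, 205 nuclear probe sets (2.72%) were called, of which 123 were higher in F1 (1.63%) and 82 were lower (1.09%). At least 2-fold differences were found for 27 higher (0.359%) and 18 lower (0.239%). Without F1 replicate 1 or 3 the count of 205 was 130 and 113, and the 123 higher were 75 and 74. The 82 lower were 39 without F1 replicate 3, and 46 and 40 without C24 replicate 1 or 3; the 18 lower by at least 2-fold were 10 without F1 replicate 3 and 9 without C24 replicate 3.

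Most of the higher genes had an F1 mean above both parental means, while far fewer passed the test against each parent given below. Of the 120 genes that were higher, the F1 mean lay above both parental means for 113 and between them for 7, against 24.1% above and 50.7% between over all 7263 probe sets with 1 gene. Of the 79 that were lower, the F1 mean lay below both for 50 and between them for 29, with 25.2% below both over all. All 3 F1 arrays were above all 6 parental arrays for 84 of the 120 higher genes, where 204 of 7524 nuclear probe sets (2.71%) had that arrangement, and below all 6 for 31 of the 79 lower genes, where 140 (1.86%) had it. Because these arrays also gave the calls, these counts are a description.

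By the test against each parent, 27 nuclear probe sets (0.359%) stood above both parents in limma and 0 (0%) stood below both. At an unadjusted p under 0.05 against each parent the counts were 146 above and 102 below. The parents were less than 2-fold apart for 96 of the 120 higher and 53 of the 79 lower genes. Over all 7263 probe sets with 1 gene such parents were more common. Only 264 of these had C24 at least 2-fold above Col, and 260 had Col at least 2-fold above C24. Where C24 was at least 2-fold above Col, 23 genes were lower and 16 higher than the mid-parent. On a linear scale where Col is 0 and C24 is 1, the 23 had a median F1 position of 0.132 (0.00832 to 0.317), near Col, and 12 of them lay within 0.5 (log2) of Col, while the 16 had a median of 1.59, beyond C24. All 264 tested probe sets of this parental kind had a median of 0.36. Of the 23, 4 had F1 and Col means under the filter signal of 89.9 and passed the filter through C24 only.

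Where Col was at least 2-fold above C24, 8 genes were higher than the mid-parent and 3 lower. The 8 had a median position of -0.043, again at the level of Col, and all 8 lay within 0.5 (log2) of it; all 260 probe sets of this kind had a median of 0.467. The 3 had a median of 0.928, at the level of C24. A call fixes the side of the mid-parent on which F1 lies, so these positions are a description.

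**Figure D1:**
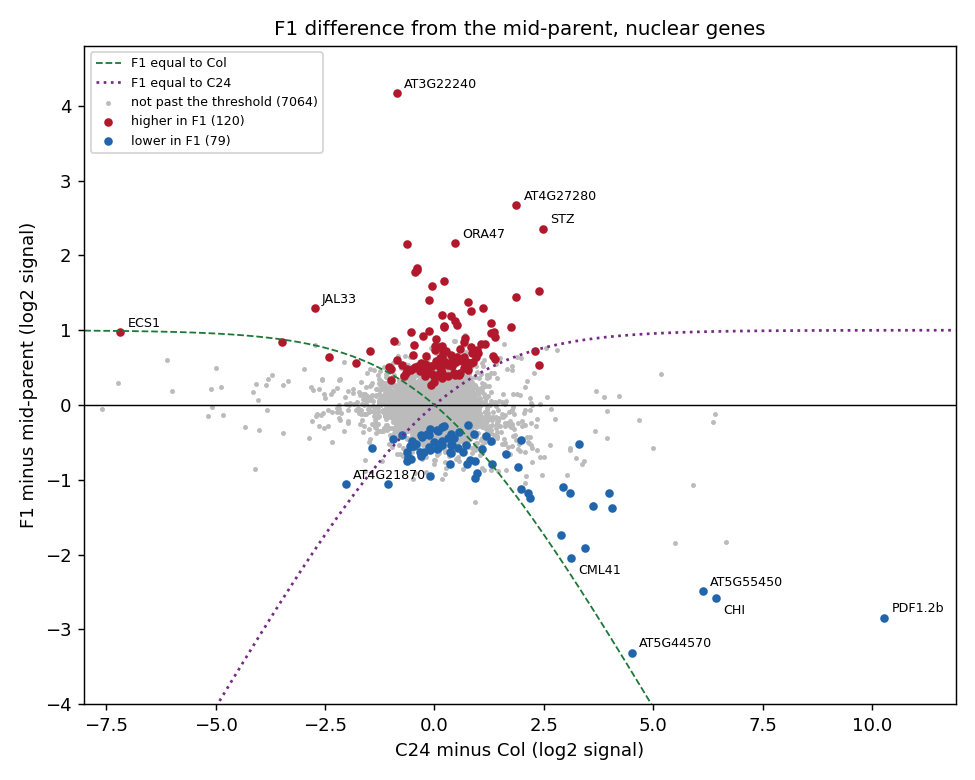
Each point is a probe set of 1 nuclear gene, with the C24 minus Col difference on the x axis and the F1 minus mid-parent difference on the y axis, both in log2 signal. Points past the threshold are red (120 higher in F1) or blue (79 lower); the horizontal line marks the mid-parent, the dashed curve an F1 equal to Col and the dotted curve an F1 equal to C24. The 23 blue genes with C24 at least 2-fold above Col lie towards the dashed curve, with a median position of 0.132 between Col (0) and C24 (1). Of these, 4 passed the signal filter through C24 only, and the positions are a description.

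The mid-parent scale bears on the lower genes in particular. The mean of the parents' logs is never above the log of their linear mean, so it turns calls towards higher values by construction. With it 193 probe sets were higher and 57 lower (77.2% higher, against 60% on the linear scale); all 123 higher calls were kept, 57 of the 82 lower calls were kept, and 2 of the 82 changed sign.

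Of the 19 gene lists, rapid calcium, touch and wound response had the highest median. Of 39 genes listed the annotation named 10, and of the 6 tested 4 were higher and 0 lower, where 1.66% of all 7225 nuclear genes were higher and 1.09% lower. The median log2 difference was 1.97 on the list and -0.02 over all. The locus AT4G27280, on that list, had signals of 5400.5, 5435 and 4865 in F1, 1593, 1014 and 1331 in C24 and 415, 301 and 354 in Col. The 3 F1 arrays stood far above the 3 C24 arrays, and these above the 3 Col arrays (log2 difference 2.67, SE 0.14, adjusted p = 6.78e-08). STZ (AT1G27730), a zinc-finger repressor gene induced by salt, cold and wounding, had 899, 1048 and 707 in F1, 299.8, 269 and 298 in C24 and 74.2, 42.3 and 44.9 in Col. Again the 3 groups did not overlap (log2 difference 2.36, SE 0.20, adjusted p = 4.62e-06).

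ORA47 (AT1G74930), an AP2/ERF transcription factor gene of jasmonate synthesis, had 727, 683 and 565 in F1, 163, 189 and 160.1 in C24 and 94.4, 127 and 153 in Col. F1 stood above both parents (log2 difference from the mid-parent 2.16, SE 0.16, adjusted p = 1.51e-06). The C24 arrays lay above the Col arrays, but that difference did not pass in limma (log2 difference 0.48, adjusted p = 0.0664). AR781 (AT2G26530), known here by its symbol and list only, had 566, 788 and 772 in F1, 198, 131 and 203 in C24 and 198, 263 and 251 in Col (log2 difference 1.77, SE 0.17, adjusted p = 1.17e-05). The other tested genes of the list did not pass: the calmodulin-like gene CML38 was at 144 ± 38.9 in F1, 90.4 ± 11.5 in C24 and 67.4 ± 19 in Col (log2 difference 0.85, adjusted p = 0.107), and EXO (EXORDIUM), a cell-expansion gene, differed by -0.06. The members of this list, as of the others, were written with earlier results of these data known, so their count is no independent evidence.

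On the list of sugar starvation and darkness 10 of 35 genes were named and tested. Of these, 4 were higher and 0 lower (1.66% and 1.09% over all nuclear genes), with a median of 0.27. AT2G20670 had 3163, 2076 and 2758 in F1, 575, 453 and 383 in C24 and 784, 764 and 605 in Col (log2 difference 2.16, SE 0.15, adjusted p = 9.90e-07). AT3G07350 had 2386, 1945 and 1866 in F1, 412, 721 and 409 in C24 and 720.2, 624 and 629.8 in Col, with the F1 arrays again above all 6 parental arrays (log2 difference 1.83, SE 0.16, adjusted p = 5.54e-06). AT3G15450 stood at 4339 ± 609.7 in F1, 1472 ± 239.5 in C24 and 1286 ± 295 in Col (SD, n = 3; log2 difference 1.66, SE 0.13, adjusted p = 3.02e-06). AT5G19120 stood at 2169 ± 269 in F1, 705 ± 45.2 in C24 and 744 ± 143 in Col (log2 difference 1.58, SE 0.12, adjusted p = 1.51e-06). In all 4 genes every F1 array was above every parental array.

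The 6 other genes of that list lay between -0.09 and 0.33 and did not pass. They include genes of branched-chain amino acid breakdown, a pathway that feeds respiration when sugars are short: MCCA and MCCB, subunits of methylcrotonyl-CoA carboxylase, differed by 0.01 and 0.21, IVD (isovaleryl-CoA dehydrogenase) by -0.01 and ETFQO, which passes their electrons on, by -0.09. The transcription factor gene BZIP53 differed by 0.33 (adjusted p = 0.114) and AKINBETA1, a subunit gene of the energy-sensing SnRK1 kinase, by 0.13. The 4 genes that rose are known here by locus only.

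AT3G22240 was the nuclear gene farthest from the mid-parent. Its signals were 11946, 23494 and 10371 in F1, 489.9, 438 and 833 in C24 and 1129, 663 and 1442 in Col, so that the lowest F1 array was above the highest parental one (log2 difference 4.17, SE 0.27, adjusted p = 5.70e-07). F1 replicate 2 was the highest of its group. AT1G32920 had 1459, 1692 and 1792 in F1, 468, 264 and 543 in C24 and 547, 532 and 527 in Col (log2 difference 1.80, SE 0.17, adjusted p = 1.21e-05), with parents that overlapped.

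**Figure D2:**
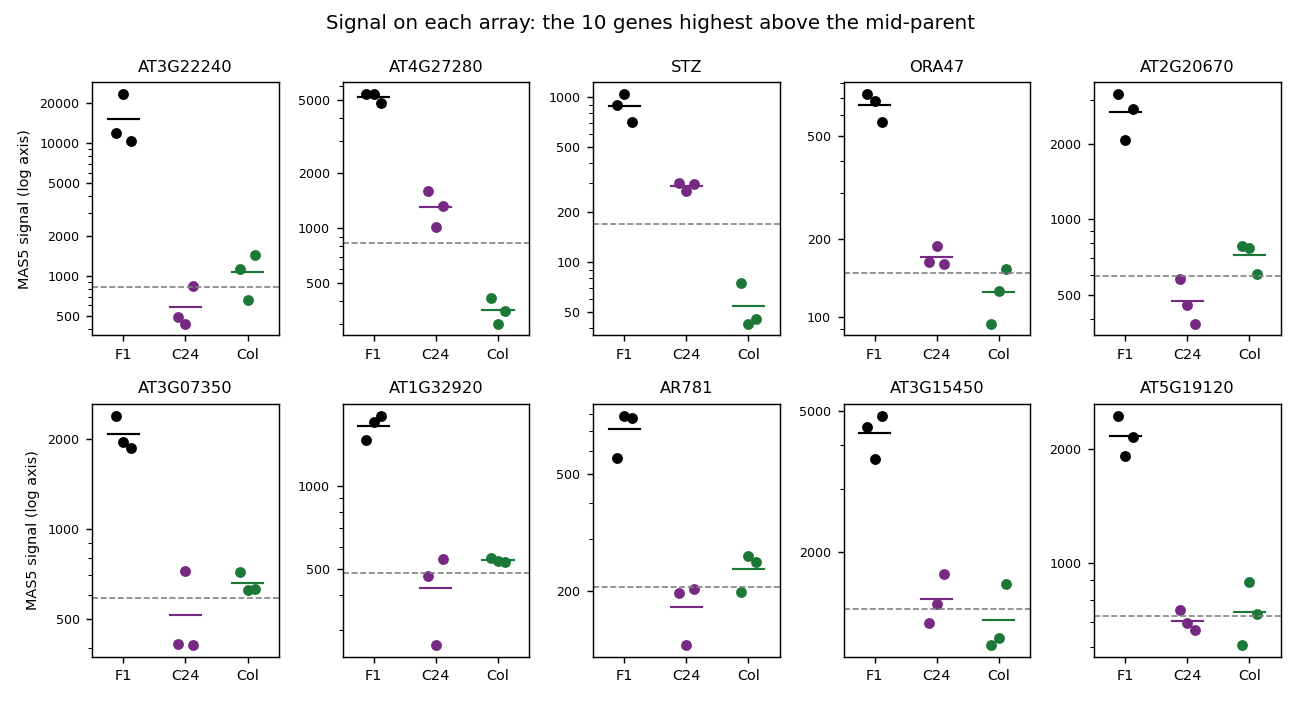
MAS5 signal on a log axis for the 10 genes highest above the mid-parent, with 1 panel per gene, 3 arrays per group as points, group means as bars and the mid-parent as a dashed line. In each panel the 3 F1 points lie above all 6 parental points.

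The other genes among the 20 highest were AT1G72920 (1.53), AT3G19030 (1.44), AT1G72940 (2.63-fold), AT3G46600 (1.37), JAL33 (2.46-fold), AT2G27830 (1.29), AT5G46710 (1.26), AT4G10910 (1.21), AT2G39650 (1.18) and AT3G56880 (1.13), all log2 differences except that JAL33 and AT1G72940 are given as a fold of the mid-parent. All but AT1G72920, JAL33 and AT2G39650 also passed above both parents. AT3G19030 had 4896, 4536 and 4659 in F1, 3019, 2877 and 2294 in C24 and 853, 711 and 676 in Col, a level above both parents although C24 was itself far above Col (adjusted p = 0.00272 for above both). F1 replicate 1 was the highest F1 array for 11 of these 20 genes and for 56 of the 120 higher genes, against 36.2% of all probe sets with 1 nuclear gene. The median signal of the 120 was 166% of the mid-parent on F1 replicate 1, 148% on replicate 2 and 158% on replicate 3. AT2G39650 lost its call without F1 replicate 1 or 3, and with no filter on low signals.

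Further genes above both parents were AT5G60680, AT1G49500, AT5G61590, AT4G33960, AT3G57450, AT2G25200, AT4G30660 and AT2G29290, with log2 differences from the mid-parent of 1.07, 0.79, 1.05, 0.79, 0.92, 1.04, 0.65 and 0.67. AT5G61590 is DEWAX, an AP2/ERF-type gene that represses cuticular wax synthesis in darkness, and had 3389, 2833 and 3027 in F1, 1589, 1453 and 1765 in C24 and 1515, 1076 and 1564 in Col (adjusted p = 0.00192 for above both). AT1G49500 was the brightest of them after AT3G22240, with 7858, 8405 and 9352 in F1, 4891, 5211 and 4807 in C24 and 4296, 5373 and 5128 in Col; its parents overlapped and its F1 arrays stood clear of both (adjusted p = 0.000458 for above both).

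Only 32 of the 199 genes past the threshold had a symbol other than the locus tag, 16 higher and 16 lower; they are described because their roles are known, a choice made after their values were seen. HAT2, an auxin-induced homeobox gene, had 944, 889 and 826 in F1, 545, 561 and 510.1 in C24 and 710.1, 693 and 599.8 in Col (log2 difference 0.56, SE 0.10, adjusted p = 0.00374), with no F1 array inside the range of a parent. ARL, an ARGOS-like gene of organ size, was at 667 ± 90.6 in F1, 582 ± 75.4 in C24 and 315 ± 28.6 in Col (log2 difference 0.57, SE 0.12, adjusted p = 0.0172), where F1 overlapped C24. EXLB1, an expansin-like wall protein gene, was at 651 ± 76.5 in F1, 623 ± 151 in C24 and 236 ± 25 in Col (log2 difference 0.62, adjusted p = 0.0363), and GH9B8, a glycosyl hydrolase gene of the cellulase family, at 536 ± 82.2 in F1, 254 ± 16.2 in C24 and 508 ± 27.2 in Col (log2 difference 0.48, adjusted p = 0.0352). Of 10 tested xyloglucan and expansin wall enzyme genes EXLB1 was the 1 that was higher and 0 were lower (1.66% and 1.09% over all nuclear genes), with a median of -0.11.

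JAL33, a jacalin-related lectin gene, had 773, 711 and 760.2 in F1, 84.9, 78.7 and 74.9 in C24 and 429, 479 and 721 in Col; F1 overlapped Col, the high parent (a fold of 2.46 over the mid-parent, adjusted p = 0.000178). THI2.2, which encodes a thionin, an antimicrobial peptide, had 6509, 5943 and 7047 in F1, 7086, 7399 and 8053 in C24 and 1308, 1582 and 1428 in Col, just below C24, its high parent (log2 difference 0.54, SE 0.09, adjusted p = 0.00211). Of the 3 tested genes for defensins and small cysteine-rich proteins THI2.2 was higher and PDF1.2b lower (1.66% and 1.09% over all nuclear genes). The median of these 3, -1.85, is the value of PDF1.2, which did not pass. TET8, a tetraspanin membrane protein gene, was at 1850.0 ± 129.7 in F1, 1425 ± 75.9 in C24 and 687 ± 110.0 in Col (log2 difference 0.81, SE 0.11, adjusted p = 0.000257). ECS1, a cell-wall protein gene, stood at the level of Col, with 21209, 22149 and 19110.5 in F1 and 21019, 19818 and 22459 in Col, against 161, 157 and 123 in C24; a gene at the level of 1 parent while the other is near 0 has a log2 difference close to 1, and its value was 0.97. On the mean of the parents' logs it was 3.57.

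XERICO, a RING-finger gene that raises abscisic acid levels, was at 1574 ± 245 in F1, 1126 ± 90.4 in C24 and 1066 ± 199 in Col (log2 difference 0.52, adjusted p = 0.0257). XCT, a clock-period gene, was at 288 ± 86.1 in F1, 172 ± 30.9 in C24 and 159 ± 23.1 in Col (log2 difference 0.77, adjusted p = 0.0458). MSRB5, a methionine sulfoxide reductase gene, differed by 0.56 (adjusted p = 0.0136), SRC2, a cold-responsive C2-domain protein gene, by 0.43 (adjusted p = 0.0084), and SAH7 by 0.31 (adjusted p = 0.0312), each with the 3 F1 arrays above the 6 parental ones. The call of XCT was lost without F1 replicates 1 or 2, C24 replicates 1 or 3 or Col replicates 1 or 2, and that of EXLB1 without F1 replicates 1, 2 or 3, C24 replicates 1 or 3 or Col replicates 1 or 2. When 1 array was left out, that of GH9B8 was lost without F1 replicates 1 or 2, C24 replicates 2 or 3 or Col replicates 1, 2 or 3, and that of SAH7 without F1 replicates 1, 2 or 3, C24 replicates 2 or 3 or Col replicates 1 or 3. Likewise that of XERICO was lost without F1 replicates 1 or 3, C24 replicates 1 or 3 or Col replicates 2 or 3, and that of ARL without F1 replicates 1 or 3 or C24 replicate 1. In the same refits that of MSRB5 was lost without F1 replicates 1 or 3, and that of SRC2 without F1 replicate 1. XCT, EXLB1, GH9B8, SAH7, XERICO, ARL and MSRB5 also lost their calls with no intensity trend. XCT, EXLB1 and GH9B8 lost theirs with no filter too.

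Most of the 20 lowest genes had a higher mean in C24 than in Col. Nothing is drawn from this order, since 4 of them passed the filter through C24 only. Of 38 listed genes of salicylic acid and immune response the annotation named 5, and of 4 tested 2 were lower and 0 higher (1.09% and 1.66% over all nuclear genes), with a median of -1.34. CML41, a calmodulin-like gene of immune signalling, had 78.9, 118 and 111 in F1, 558, 753 and 999 in C24 and 59.3, 98.9 and 108 in Col. F1 overlapped Col and lay clear of C24 (log2 difference -2.05, SE 0.25, adjusted p = 0.000134). The means of 103 in F1 and 88.8 in Col were close to the filter signal of 89.9, so the size of this difference is uncertain. CHI (AT2G43570), a chitinase gene, had 212, 468 and 82.5 in F1, 2289, 2145 and 2761 in C24 and 54.7, 8.91 and 42.6 in Col (log2 difference -2.58, SE 0.58, adjusted p = 0.0221). Each F1 array lay between the parents, with replicate 2 the highest.

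The other tested genes of the list did not pass. GRX480, a glutaredoxin gene that links salicylic acid to jasmonate signalling, was at 102 ± 46.9 in F1, 235 ± 35 in C24 and 59 ± 24.9 in Col (log2 difference -0.63, adjusted p = 0.386), and SAG101, a partner of the immune regulator EDS1, was at 145 ± 21.1 in F1, 205 ± 28.9 in C24 and 85.6 ± 15.2 in Col and differed by -0.0028 (adjusted p = 0.997). The C24 arrays of SAG101 stood above the Col arrays, and its F1 mean was at the mid-parent. On the jasmonate list 2 of 19 genes were named and tested, both defensin genes. PDF1.2b (AT2G26020) had 215, 4069.8 and 272 in F1, 11383, 8170.2 and 7581 in C24 and 5.28, 6.1 and 11.6 in Col, with F1 replicate 2 far above the other F1 arrays (log2 difference -2.85, SE 0.74, adjusted p = 0.0499). PDF1.2 (AT5G44420) had 135, 3617 and 255 in F1, 4409, 3354 and 2928 in C24 and 83.7, 62 and 91.2 in Col and did not pass (log2 difference -1.85, adjusted p = 0.239). Both fitted values rest on means of log2 signals. On arithmetic means, which F1 replicate 2 raises, F1 was at 33.6% of the mid-parent for PDF1.2b and 73.3% for PDF1.2. These are smaller departures than the fitted values. The probe set of PDF1.2b has the suffix _x_at and can bind related transcripts.

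AT5G44570 had the lowest fitted value, with 49.7, 64.7 and 55 in F1, 1169, 828 and 1258 in C24 and 55.8, 37.5 and 48.7 in Col. F1 and Col overlapped and lay under the filter signal of 89.9, so the probe set was tested only through C24; its fitted log2 difference of -3.31 has no well-measured F1 level behind it. AT5G55450 had 619, 1619.9 and 381 in F1, 8317, 8317 and 7508 in C24 and 161, 70.7 and 134 in Col, each F1 array between the parents and closer to Col (log2 difference -2.49, SE 0.38, adjusted p = 0.00106). AT2G44380 had 55.5, 91.4 and 58.3 in F1, 464, 374 and 549.8 in C24 and 57.2, 30.7 and 42.4 in Col, and AT1G10340 averaged 70.3 ± 46 in F1, 376 ± 108 in C24 and 51.4 ± 19.4 in Col. In both F1 overlapped Col, and the means of F1 and Col were under the filter signal, as they were for AT5G38900. The fitted log2 differences of these 3 genes (-1.91, -1.74 and -1.12) are given with the same limit, and of each it can be said only that F1 was far below C24.

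Of the 20 lowest genes 17 had a higher mean in C24 than in Col. The filter works on the mean over all arrays and so admits genes that are high in 1 parent alone: 4 of the 17 (AT5G44570, AT2G44380, AT1G10340 and AT5G38900) passed through C24 only, and nothing is drawn from the 17. The others with C24 as the high parent were AT5G59670 (-1.37), AT5G39670 (-1.35), AT1G23850 (-1.24), AT5G52750 (-1.18), AT1G66880 (-1.18), AT1G52200 (-1.17), AT2G39210 (-1.10), AT5G38210 (-0.98) and AT4G32870 (-0.90). AT4G32870 had 228, 248 and 206 in F1, 608, 606 and 484 in C24 and 249, 315 and 298 in Col, below all 6 parental arrays. F1 replicate 2 was the highest F1 array for 14 of the 20 lowest genes and for 33 of the 79 lower genes, against 30.7% of all probe sets with 1 nuclear gene.

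The 3 lowest genes with the opposite parental order were AT4G21870, AT2G36885 and UBP21. AT4G21870 was the 1 of 5 tested genes on the heat shock and chaperone list that passed, where 1.09% of all nuclear genes were lower. It had 359, 307 and 326 in F1, 279, 248 and 287 in C24 and 1075, 1098 and 1131 in Col (log2 difference -1.06, SE 0.11, adjusted p = 3.19e-05). Each F1 array lay between the parents and close to C24, the low parent. AT2G36885 had 339, 193 and 388 in F1, 366, 385 and 440.5 in C24 and 1140.1, 733 and 684 in Col (log2 difference -1.06, adjusted p = 0.00757). UBP21, a ubiquitin-specific protease gene, had 66.1, 104 and 97.9 in F1, 129.6, 219 and 153 in C24 and 136, 179 and 219 in Col, with parents that overlapped and F1 below them (log2 difference -0.94, adjusted p = 0.0363). Its F1 signals lay around the filter signal of 89.9, so the size of this difference is uncertain.

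**Figure D3:**
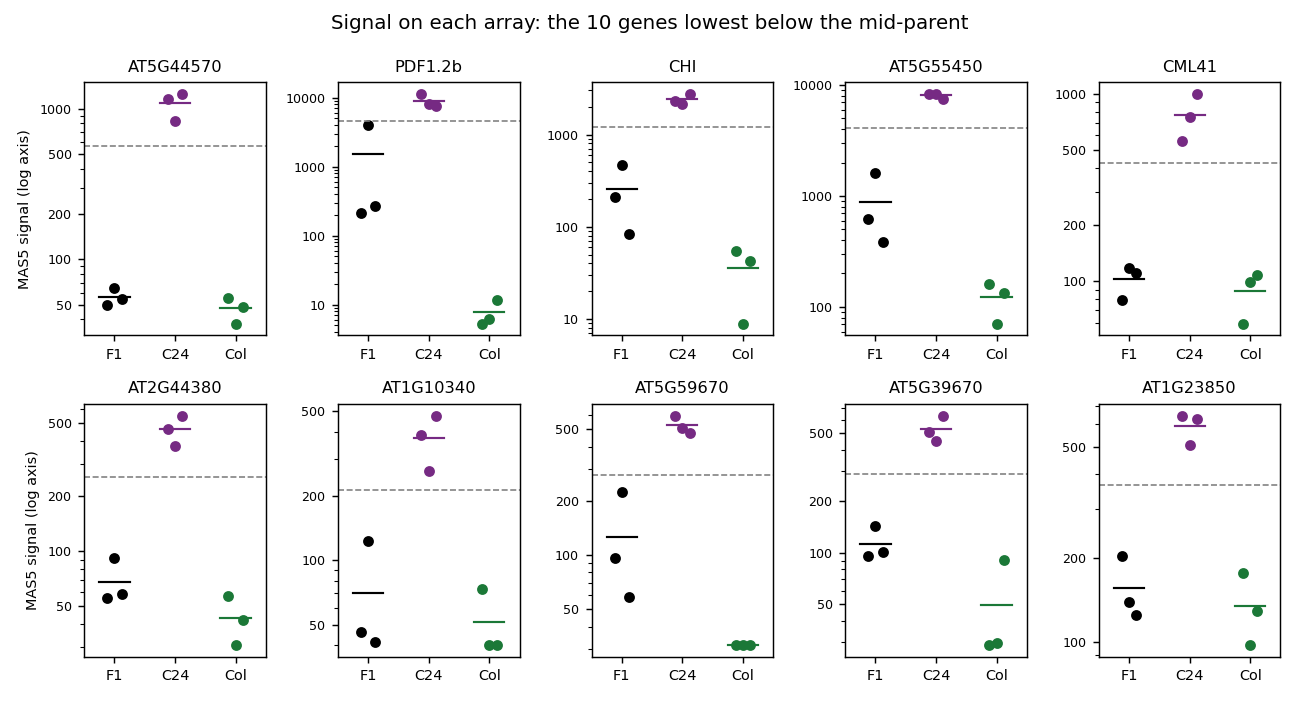
MAS5 signal on a log axis for the 10 genes lowest below the mid-parent, with 1 panel per gene, 3 arrays per group as points, group means as bars and the mid-parent as a dashed line. All 3 F1 points lie below the mid-parent and below the 3 C24 points in each panel, and F1 replicate 2, the middle point, stands out highest among the F1 points in PDF1.2b, CHI and AT5G55450.

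On the mean of the parents' logs several of these values moved by over 1.5-fold: AT5G44570 was at -1.99, CML41 at -1.33, AT2G44380 at -1.06 and AT1G10340 at -1.12, the last no longer past the threshold. AT5G55450 (-0.41), CHI (-0.34), AT5G39670 (-0.43), AT5G59670 (-0.26), AT5G52750 (-0.10), AT1G66880 (-0.47) and AT2G39210 (-0.46) also lost their calls, as did AT5G38900 and AT1G52200 (both -0.81), and PDF1.2b was at 1.29 (adjusted p = 0.333). Leaving out 1 array moved CHI to -3.19 without F1 replicate 2 and -1.94 without F1 replicate 3, and PDF1.2b to -2.08, -4.20 and -2.25 without F1 replicates 1, 2 and 3. The call of CHI was lost without F1 replicates 1 or 3 or C24 replicates 1 or 3, and that of PDF1.2b without F1 replicates 1 or 3, C24 replicates 1, 2 or 3 or Col replicates 1, 2 or 3. When 1 array was left out, that of AT1G10340 was lost without F1 replicates 1 or 3, and that of AT5G59670 without F1 replicates 1 or 3, C24 replicates 1, 2 or 3 or Col replicates 1, 2 or 3. Likewise that of AT1G52200 was lost without F1 replicates 2 or 3, C24 replicates 1 or 3 or Col replicates 1, 2 or 3, and that of AT5G39670 without F1 replicates 1, 2 or 3 or C24 replicates 1, 2 or 3. In the same refits that of AT5G52750 was lost without F1 replicates 1 or 3 or C24 replicates 1, 2 or 3, and that of AT5G38210 without F1 replicates 2 or 3, C24 replicates 1 or 3 or Col replicate 2. With 1 array fewer, that of AT5G38900 was lost without F1 replicates 2 or 3. Of the 20 lowest genes, AT2G36885, UBP21, AT1G52200, AT5G52750, AT5G39670, AT5G59670, AT1G10340, CHI and PDF1.2b lost their calls with no intensity trend. With no filter UBP21, AT5G38210, AT5G38900, AT1G52200, AT5G52750, AT5G39670, AT5G59670 and PDF1.2b did. AT5G55450, CHI, PDF1.2b, AT1G52200 and AT5G39670 lost theirs with robust eBayes. AT5G59670 lost its call with quantile normalization and with median centring, and PDF1.2b when organelle probe sets were left out before the fit.

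The other lower genes with a symbol had smaller differences. HYH, a light-signalling bZIP gene close to HY5, had 132, 124 and 150.4 in F1, 190.0, 193 and 198 in C24 and 314, 241 and 186 in Col, below all 6 parental arrays (log2 difference -0.69, SE 0.17, adjusted p = 0.0415). SIZ1, a SUMO ligase gene that restrains salicylic acid build-up, had 423, 417 and 452 in F1, 674, 619.6 and 649.9 in C24 and 515, 586 and 468 in Col, also below all 6 (log2 difference -0.44, SE 0.10, adjusted p = 0.0271). NRPA1, a catalytic subunit gene of RNA polymerase I, which transcribes ribosomal RNA, was at 134 ± 16 in F1, 234 ± 18 in C24 and 181 ± 5.35 in Col (log2 difference -0.64, adjusted p = 0.0297).

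Both endoplasmic reticulum chaperone genes among them had C24 as the high parent. CRT1b, a calreticulin gene, had 1439, 2304 and 2152 in F1, 3095, 2978 and 3367 in C24 and 2274, 2509.7 and 2526 in Col (log2 difference -0.53, SE 0.12, adjusted p = 0.0228), and ATERDJ3B, a DnaJ co-chaperone gene, was at 1389 ± 160.1 in F1, 2128 ± 150.0 in C24 and 1431 ± 44.3 in Col (log2 difference -0.36, adjusted p = 0.0377). YLS5, a DJ-1-type gene first named from yellowing leaves, had 579.7, 492 and 448 in F1, 1421, 1079 and 1267 in C24 and 537, 524 and 439.7 in Col, at the level of Col (log2 difference -0.79, SE 0.12, adjusted p = 0.00117). PCME, an isoprenylcysteine methylesterase gene, differed by -0.58 (adjusted p = 0.0436), ALN, the allantoinase of purine breakdown, by -0.46 (adjusted p = 0.0379), and Mfl1, a mitoferrin-like iron carrier gene of the chloroplast, by -0.38 (adjusted p = 0.0346). YLS5 kept its call in all 20 alternatives. On the mean of the parents' logs the calls of ATERDJ3B, ALN and PCME were lost (-0.33, -0.38 and -0.48). HYH, SIZ1, CRT1b, ATERDJ3B and ALN lost theirs with no intensity trend. Those of HYH, NRPA1, ALN and PCME were lost with no filter, and those of ATERDJ3B and PCME with median centring. The call of HYH was lost without F1 replicates 1, 2 or 3, C24 replicates 1, 2 or 3 or Col replicates 1 or 2, and that of SIZ1 without F1 replicates 1, 2 or 3, C24 replicates 1 or 3 or Col replicate 2. When 1 array was left out, that of NRPA1 was lost without F1 replicates 1, 2 or 3, C24 replicates 2 or 3 or Col replicates 1 or 2, and that of CRT1b without F1 replicate 1, C24 replicate 3 or Col replicate 2. Likewise that of ATERDJ3B was lost without F1 replicates 1 or 3, C24 replicates 1 or 3 or Col replicates 1, 2 or 3, and that of PCME without F1 replicates 1, 2 or 3, C24 replicates 2 or 3 or Col replicates 2 or 3. In the same refits that of ALN was lost without F1 replicates 2 or 3, C24 replicates 1 or 3 or Col replicates 1, 2 or 3, and that of Mfl1 without F1 replicates 1, 2 or 3, C24 replicates 1, 2 or 3 or Col replicates 2 or 3. With 1 array fewer, that of UBP21 was lost without F1 replicates 1 or 3, C24 replicates 2 or 3 or Col replicates 2 or 3.

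Of 23 UDP-glycosyltransferase genes tested, 2 were lower and 0 higher (1.09% and 1.66% over all nuclear genes), with a median of -0.17. UGT87A2, a gene linked to flowering time, was at 359 ± 87.8 in F1, 768 ± 105 in C24 and 460.1 ± 83.1 in Col (log2 difference -0.79, SE 0.16, adjusted p = 0.0106). UGT78D2, which glycosylates flavonols and anthocyanins, was at 465 ± 11.3 in F1, 551 ± 34 in C24 and 681 ± 48.9 in Col (log2 difference -0.40, SE 0.10, adjusted p = 0.0312), with its 3 F1 arrays below all 6 parental ones. The call of UGT78D2 was lost without F1 replicates 1, 2 or 3, C24 replicates 1 or 2 or Col replicates 1 or 2, and that of UGT87A2 without F1 replicate 3. Both calls were also lost with no intensity trend. UGT78D2 was the 1 gene past the threshold of 5 tested for phenylpropanoid, flavonoid and anthocyanin synthesis (median -0.34), where 1.09% of all nuclear genes were lower. DFR (dihydroflavonol reductase), low in C24, stood at the mid-parent, with 445, 326 and 438 in F1, 173, 211 and 141 in C24 and 558, 637 and 665 in Col (log2 difference 0.01, adjusted p = 0.981), and UGT78D1, a flavonol glycosyltransferase gene, was at 675 ± 124 in F1, 99.4 ± 21.6 in C24 and 1591 ± 134 in Col (log2 difference -0.34, adjusted p = 0.314).

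Photosynthesis genes had small differences from the mid-parent. Of 8 tested genes for photosystems, antennae and electron transport 1 was lower and 0 higher (1.09% and 1.66% over all nuclear genes), with a median of 0.06. That was LHCB4.3, an antenna isoform gene, with 1481, 1247 and 1348 in F1, 1623, 1741 and 1567 in C24 and 1821, 1772 and 1679 in Col (log2 difference -0.33, SE 0.08, adjusted p = 0.0456). This call was lost without F1 replicates 2 or 3, C24 replicates 1, 2 or 3 or Col replicates 1, 2 or 3. It was also lost with quantile normalization, with median centring and with no intensity trend. The 7 others, LHCB4.1 and LHCB4.2 (antenna), PSAE-1 and PSAN (photosystem I), PSBW and PSBY (photosystem II) and ATPC1 (ATP synthase), lay between 0.04 and 0.14. Of 4 Calvin-Benson genes (RCA, SBPASE, PRK and AT1G56190) 0 passed, with values from -0.02 to 0.12. Of 8 chlorophyll synthesis genes 0 passed, with values from -0.31 for GSA1 (adjusted p = 0.0907) to 0.20 for PORB.

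Among the other lists with genes tested, 0 genes passed in limma for cold and abscisic acid (4 tested, median 0.36), starch (6, median 0.12), glucosinolates (3, median -0.13), clock, photoreceptors and flowering (4, median -0.09), and the lists with 1 gene tested each, which were cell cycle, silencing, senescence and nitrate. An unadjusted limma p under 0.05 without a call was found for 856 of all 7225 nuclear genes tested. The counts were 2, 1, 0 and 1 for the first 4 of these lists, and 1 for nitrate. For the 2 lists given above with 0 passed, they were 3 of 8 for chlorophyll synthesis and 0 of 4 for Calvin-Benson. COR15A, a cold-regulated chloroplast protein gene, was just outside the threshold with 8518, 9341 and 7651 in F1, 7078, 9198 and 7499 in C24 and 5347, 5625 and 4312 in Col (log2 difference 0.39, SE 0.10, adjusted p = 0.0502). GI, a clock gene, differed by 0.16, AGL24, a flowering gene, by -0.58 (adjusted p = 0.0948) and ASPGB1, an asparaginase gene, by -0.88 (adjusted p = 0.0916). On the auxin and shade list HAT2 passed of 5 tested (median 0.01), where 1.66% of all nuclear genes were higher. IAA29, an auxin-response repressor gene of that list, did not pass and was at 245 ± 26.9 in F1, 238 ± 50.7 in C24 and 88.2 ± 37.5 in Col (log2 difference 0.62, adjusted p = 0.239). The 19 lists held 490 genes, of which 88 were named and 78 tested, so that most members of each pathway are not analysed here.

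**Figure D4:**
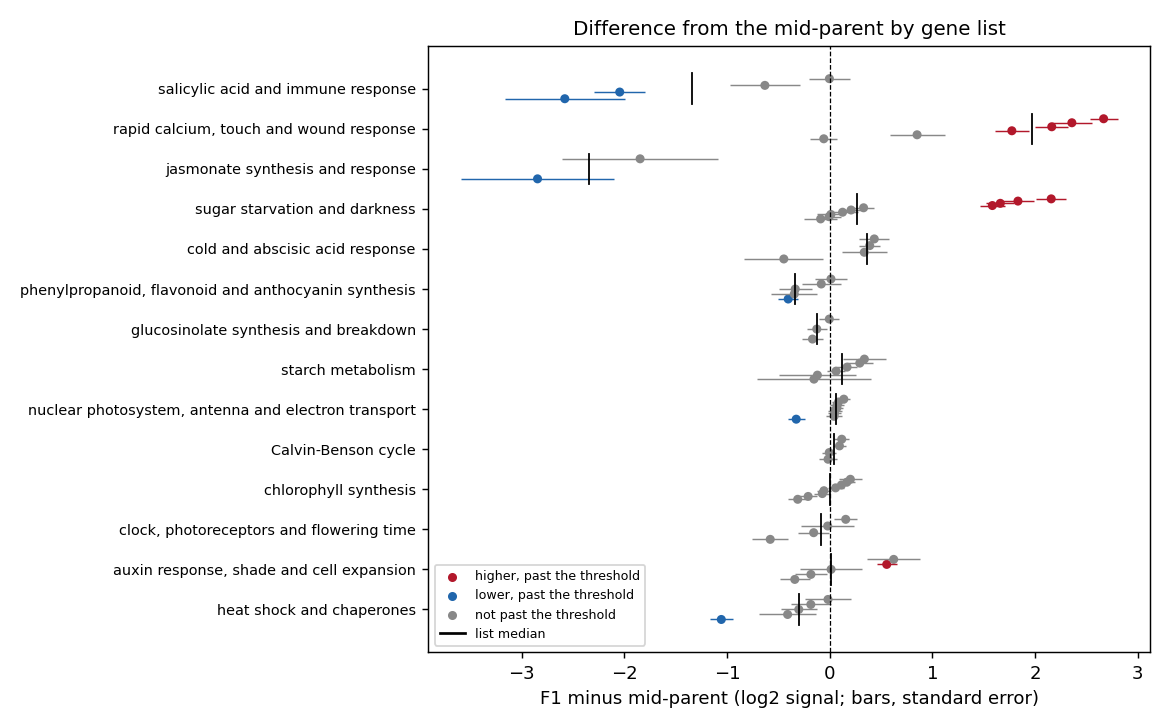
F1 minus mid-parent in log2 signal for each tested gene of the 14 lists with at least 2 genes tested; bars are standard errors, red and blue points passed the threshold and black ticks are list medians. The rapid-response and sugar-starvation lists each hold 4 red points above 1.5, and the photosystem, Calvin-Benson and chlorophyll lists have their points within 0.35 of 0.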

How the data were processed

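The authors deposited MAS5 intensity values, a linear signal for each probe set on each array; the submitters' processing notes name MAS5, and no source used here gives its settings or version. The deposited values of each array have the same trimmed mean, so they had been scaled, and differences are relative to that array's overall level. Arrays carry no read depth, and their number (9) limits the precision. Gene names come from the platform annotation, updated through RefSeq genes (assembly TAIR10.1) that served for names, genome and gene order only; no promoter or protein sequence was used here. Signals were log2-transformed and probe sets under the 40th percentile of mean log2 signal (6.49, a signal of 89.9) were left out. limma 3.58.1 (R 4.3.3; lmFit, eBayes with an intensity trend) fitted a mean per group over all 9 arrays and 13648 probe sets, organelle and unnamed ones included, and every adjusted p is two-sided and Benjamini-Hochberg adjusted over these. The difference from the mid-parent is the fitted F1 log2 mean minus the log2 of the mean of both parents' fitted levels on the linear scale, with a standard error by the delta method. Printed group means, percentages of the mid-parent and positions between the parents use arithmetic means of the linear signals, so they can differ from the fitted values where arrays scatter. To be above or below both parents, F1 had to differ from each in that direction, and the larger p of the pair was adjusted. An exact test of 3 against 3 arrays cannot go below p = 0.1, so calls rest on the spread shared across groups. The labels call the replicates biological; no batch is given. The script was tested on simulated data.

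Genes named are the 20 highest and 20 lowest past the threshold, those past it within a list or family, and up to 25 above both parents. Genes with a symbol were added after their values were seen, as said in the text. A list uses the brightest probe set of each gene and has no test. Families were matched by words in the RefSeq symbols and synonyms, after 2 patterns that had matched clone names or parts of words were corrected. The members and lists were chosen with earlier results of these data known.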

Additional observations from a re-analysis of the deposited data

How the results depend on the processing

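The counts were recomputed under 20 other settings and 1 added later, and all 7 counts were within 1.5 times the reported value under quantile normalization, median centring, robust eBayes, log2(signal + 32), exclusion of _s_at and _x_at probe sets, and exclusion of organelle probe sets before the fit. With the replicate block (replicate numbers as pairs) 266 probe sets were called (147 higher, 119 lower) and 32 were above both parents, also within 1.5 times. The deviations of same-numbered arrays correlated at -0.001 to 0.117 (4 of 9 pairs above 0.1) and those of other pairs at -0.109 to 0.018. Each array correlated best with its own number between F1 and C24 and between F1 and Col, not throughout between C24 and Col, which is a hint from the data and not from the design, so the numbers were not used as pairs. With the mean of the parents' logs 193 were higher, 58 of them at least 2-fold, and 3 were lower at least 2-fold. With no intensity trend 119 were called, 74 higher and 45 lower, 10 of these at least 2-fold. The 60th-percentile filter left 5 lower at least 2-fold, and with no filter 1 probe set was below both parents, as it was when the chromosome 2 copies of mitochondrial genes were counted as nuclear, an alternative chosen after seeing the data. Leaving out 1 array gave 113 to 188 called, 74 to 120 higher, 39 to 73 lower, 27 to 32 and 9 to 20 at least 2-fold higher and lower, 21 to 27 above both parents and 0 below both. The cause of these shifts was not tested. Of 72 named genes 38 kept direction and call in every alternative that gave a value (31 of 40 higher, 7 of 32 lower), and 1 reversed, PDF1.2b at 1.29 on the mean of the parents' logs. The 7 include AT5G44570 and AT2G44380, which passed the filter through C24 only, and CML41, with F1 and Col close to the filter signal. For AT5G44570 and AT2G44380 a kept call shows only that F1 was far below C24. Members under the filter have no test here, and signals near the bottom of the scale make the size of a fold uncertain.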

Other observations

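Genes that were higher than the mid-parent had other such genes close by on the chromosome in 14 of 120 cases (11.7%), counting the 5 protein-coding genes on either side in RefSeq order, while 358 of all 7225 nuclear genes tested (4.96%) had a higher gene that close. They were AT1G72900, AT1G72920 and AT1G72940 on chromosome 1 (log2 differences from 0.82 to 1.53), AT2G29290, AT2G29310 and AT2G29360 on chromosome 2 (log2 differences 0.67, 0.45 and 0.42), and 4 pairs: ORA47 with AT1G74940 (2.16 and 0.58), AT2G38790 with AT2G38820 (1.09 and 0.73), AT3G52060 with AT3G52070 (0.52 and 0.39) and AT4G28290 with AT4G28240 (0.63 and 0.48). Among lower genes 2 of 79 (2.53%) had a lower neighbour, Mfl1 and AT5G42150 (-0.38 and -0.43), against 202 of 7225 (2.8%). No test was made of these shares, and whether probe sets of neighbouring genes share sequence was not tested. The neighbours outside the named set were chosen after their values were seen.

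Chromosome 5 held 17 higher and 25 lower genes of 1750 tested, while chromosomes 1 to 4 held 32 and 18 of 1875, 23 and 14 of 1032, 27 and 12 of 1510, and 21 and 10 of 1058. Over all nuclear genes tested 1.66% were higher and 1.09% lower, and no test was made between chromosomes. Of the 6016 tested probe sets without a gene name, 104 were higher and 102 lower than the mid-parent, against 229 and 221 of all 13648 tested. Their genes and genome are not analysed here.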
